A study of Mus musculus with 15 samples.

Results

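mHep and eHep are the 2 culture states compared here, mouse by mouse, across all genes. Most room is given to genes outside a list of classical liver genes and a list of cell division genes. The arrays were chosen by their titles, 7 of mHep and 7 of eHep from 3 mice, which makes 14 of the 15 arrays of the series. The series studied expandable hepatocytes, liver cells that were kept in a medium for expansion or in one for differentiation for 21 days, beside hepatocytes isolated directly by collagenase perfusion. eHep arrays held cells of the expansion medium, and the mHep arrays are taken as those of the differentiation medium, although the labels do not spell the name mHep out. Mouse 1 was the 129S1 animal numbered No1, mouse 2 the C57B6 animal numbered No1 and mouse 3 the 129S1 animal numbered No2. Mice 1 and 2 gave 3 arrays in each medium and mouse 3 gave 1 array in each medium. The array left out of the comparison held primary hepatocytes of C57B6 mice, and it is given only as a description. The labels give no age, sex or genotype beyond the strain, and nothing in them says that the arrays of a mouse came from separate cultures. The replicate is therefore the mouse (n = 3). The p-values of the main fit rest on the spread between these 3 animals. limma moderates that spread with the one pooled over all genes tested (4.01 prior and 2 residual degrees of freedom).

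Hepatocytes secrete most plasma proteins, metabolise nutrients and foreign compounds and form bile. Placed in culture they lose many of these functions, and cells that divide turn on genes of the spindle and of DNA replication while the mature functions are low. Beyond those classical genes, an epithelial cell that changes state also changes its surface proteins, its transporters, the peptides it secretes and the matrix and signalling proteins it makes, and those are the genes described below.

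All levels are log2 of the processed Cy3 signal minus the 75th percentile of the array, so a level of 0 is that percentile and each step of 1 is a doubling of the signal. Levels of different genes cannot be compared, since each probe has its own brightness. A probe "not well above background" has only an upper limit on its array. For genes dark on every array of the lower medium a lower limit of the fold is given; for genes dark on some of them the difference is that of the readings, dark ones included, and its size in a mouse with dark arrays was not measured. The lowest level called well above background ranged from -5.92 to -3.76 on the eHep arrays, from -5.47 to -3.73 on the mHep arrays, and it was -2.12 on the primary array.

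The share of probes read well above background was 49.1% to 60.7% on the eHep arrays, between 48.8% and 61.8% on the mHep arrays and 36.2% on the primary array, and the 75th percentile of the signal was 248.6 to 826.6, 255.7 to 726.9 and 78.3 respectively. The array titled mHep3 carries an eHep source name; it was placed by its title, and its highest correlation over probes was with mHep array 3 of mouse 2, read in the same scan (r = 0.962), against 0.909 with the eHep array of its own mouse. mHep array 1 of mouse 2, the dimmest mHep array, correlated best with mHep array 2 of its own mouse (0.956) and at 0.936 to 0.945 with 5 of the 7 eHep arrays, but at 0.903 with mHep array 3 of the same mouse and at 0.888 to 0.894 with the mHep arrays of mouse 1. The results without that array, and without mouse 3, stand beside the counts below. No slide held both eHep and mHep arrays of mouse 1 or of mouse 3, and in mouse 2 only array 3 of each medium shared a slide. Medium and slide therefore cannot be told apart in mice 1 and 3. Of 11 hepatocyte markers, 9 were well above background on all 7 mHep arrays and 5 on all 7 eHep arrays, and Cps1 and Ttr were not on any eHep array. Of 27 tested markers of the other cell types listed, none passed the test between mHep and eHep in limma, and 5 had an unadjusted p under 0.05.

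A total of 14591 genes were tested with limma on the 6 means of mouse and medium, with the mouse as a block, and 268 passed an adjusted p of 0.05 (1.84% of the genes tested). Of these, 202 were higher in mHep (1.38%) and 66 were lower (0.452%), and each of the 268 had the same direction in all 3 mice. As read, the rises were larger than the falls: the median log2 difference was 4.90 for the genes called higher and -3.20 for those called lower, beside -0.09 over all genes tested. At least 1 eHep array was dark for 143 of the 202 rises, and at least 1 mHep array for 37 of the 66 falls. Both medians therefore rest in part on dark readings. The classical liver list held 109 of the 202 rises and the cell division list held 18 of the 66 falls, which left 93 rises and 48 falls outside both lists. Both lists are patterns of gene symbols and are not complete. Apcs and Crp, for example, were counted among the rises outside them, and Spag5 and Kifc1 among the falls. The arrays are of bulk RNA, so fewer cells of a type and less RNA per cell cannot be told apart. A wider set without a test, genes at least 2-fold different in the same direction in all 3 mice, held 518 genes on the mHep side and 420 on the eHep side, and 339 and 340 of these were outside both lists.

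**Figure D1:**
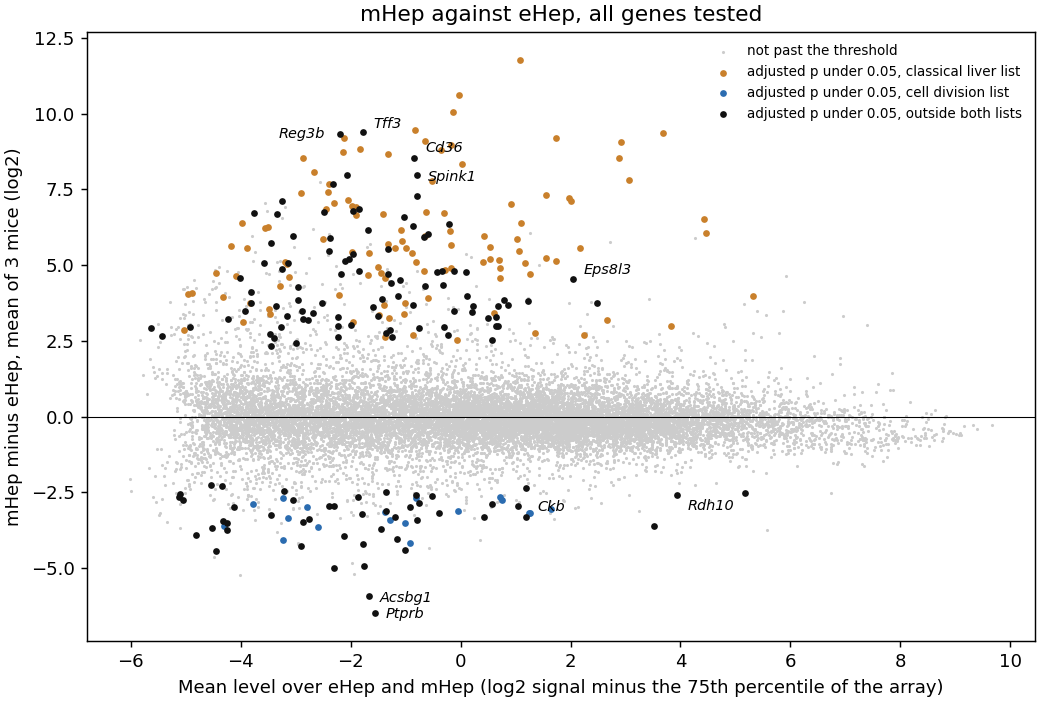
Mean difference between mHep and eHep over 3 mice (vertical axis, log2) against the mean level of the gene (horizontal axis, log2 signal minus the 75th percentile of the array) for the 14591 genes tested; each point is a gene and colours mark the lists of the genes past an adjusted p of 0.05. The 93 rises outside both lists (black, above 0) lie between 2.33 and 9.41 and overlap the liver list (orange), and the 48 falls (black, below 0) reach -6.49 at Ptprb.

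The number of calls depended on the scaling, and the mix of directions with it. With the percentile taken over probes detected on all 14 arrays the median of all genes was 0.02 and 118 genes passed, 105 higher and 13 lower (89.0% higher, against 75.4% in the main scaling); 91 rose and 13 fell after quantile normalization (87.5%), and 94 and 16 with the values the authors deposited (85.5%), and every gene called under these 3 settings was also among the 268. None of the 268 changed direction under any of the settings run, and without the mouse as a block 2 genes passed. Leaving out mouse 1, 2 or 3 gave 822, 513 and 641 calls, with 268, 232 and 267 of the 268 among them, and leaving out mHep array 1 of mouse 2 gave 299, with 264 of the 268.

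The rises outside the liver list are described first. Tff3 encodes trefoil factor 3, a small peptide that goblet cells secrete and that protects mucosal surfaces. Its level was -7.93, -5.92 and -4.89 on the lowest, middle and highest eHep arrays, none of them well above background, and 1.21, 3.51 and 4.45 on the mHep arrays. The arrays of the media did not overlap, and the gene was at least 218.9-fold higher in mHep (limma, adjusted p = 0.00176). The primary array was brighter still at 7.64.

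Reg3b and Reg3g encode secreted C-type lectins that bind bacterial cell walls. Reg3b was at -8.12, -6.26 and -5.47 on the lowest, middle and highest eHep arrays, all below the background limit, and at -0.54, 0.76 and 7.87 on the mHep arrays, at least 159.5-fold higher (adjusted p = 0.0318). Mouse 2 stood apart: its 3 mHep arrays read 7.87, 7.69 and 4.90, whereas no mHep array of mice 1 and 3 exceeded 0.76. Reg3g followed with -8.22, -6.57 and -6.02 in eHep and -3.63, 0.53 and 3.16 in mHep, at least 21.8-fold higher (adjusted p = 0.0301). Reg3b kept its call under 2 and Reg3g under 1 of the 6 other scaling, background and probe settings. Neither gene was well above background on the primary array, at -2.84 and -3.42. Both were named after their values were seen.

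Guca2a and Guca2b encode guanylin and uroguanylin, peptides that activate guanylate cyclase C on intestinal epithelium. Guca2b read -6.87, -4.29 and -2.95 on the lowest, middle and highest eHep arrays. On the mHep arrays it read -1.96, 2.14 and 6.45, with no overlap. Its mean log2 difference was 7.29 ± 1.15 (moderated SE of limma, n = 3 mice, adjusted p = 0.0441). Here and below the SE is this moderated value. It mixes the spread of the 3 mouse differences with the spread pooled over all genes tested. Guca2a read -5.42, -3.58 and -2.60 and -1.03, 1.58 and 5.07, with a difference of 6.02 ± 0.95 (adjusted p = 0.0441). The order of the mice was the same for both genes: the difference was largest in mouse 3 (10.74 and 8.90), then in mouse 1 (6.90 and 5.42), then in mouse 2 (4.21 and 3.73). On the primary array both were below background, and each lost its call under 4 of the 6 other scaling, background and probe settings and without the array pair of mouse 2 from the earlier scan.

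The bases before the RefSeq start are shown for 3 of these genes. The genes of each pair lie within 100 kb of each other and rose in all 3 mice. The stretch before Guca2b overlaps another RefSeq gene and is left out. The printed bases run 5′ to 3′ on the strand of the gene and end at the base before the start, in build GRCm38.p6. Capitals mark letters that match a motif searched on both strands. Guca2a (chr4:119637482-119637731, plus strand) holds an AP-1 match that begins 200 bases and a FOXA match that begins 34 bases before the start:
Guca2a: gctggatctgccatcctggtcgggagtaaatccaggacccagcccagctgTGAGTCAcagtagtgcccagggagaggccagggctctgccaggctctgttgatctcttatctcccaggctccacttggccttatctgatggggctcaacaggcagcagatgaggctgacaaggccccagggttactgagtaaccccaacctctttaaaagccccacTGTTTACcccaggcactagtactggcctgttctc
Reg3b (chr6:78370635-78370884, plus strand) and Reg3g (chr6:78468875-78469124, minus strand) each hold 1 match to the CHR motif, at 229 and 228 bases before the start, and Reg3g also holds a TCF match at 54 bases. Their last 20 bases before the start are identical, the longest run the stretches share:
Reg3b: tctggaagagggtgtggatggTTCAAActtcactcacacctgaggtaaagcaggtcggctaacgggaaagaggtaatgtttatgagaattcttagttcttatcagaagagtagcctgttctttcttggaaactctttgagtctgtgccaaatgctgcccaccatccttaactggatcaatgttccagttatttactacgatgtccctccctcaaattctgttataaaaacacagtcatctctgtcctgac
Reg3g: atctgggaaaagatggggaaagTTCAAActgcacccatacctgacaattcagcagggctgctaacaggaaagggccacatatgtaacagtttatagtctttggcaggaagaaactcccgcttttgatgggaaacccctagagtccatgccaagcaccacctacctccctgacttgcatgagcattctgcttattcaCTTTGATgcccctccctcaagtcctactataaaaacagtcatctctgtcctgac

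Cd36, a membrane receptor that takes up fatty acids and modified lipoproteins, had the largest rise outside both lists among the genes read above background on at least 1 eHep array. It read -6.83, -5.26 and -3.64 on the lowest, middle and highest eHep arrays, 2 of 7 well above background, and 1.82, 3.97 and 4.56 on the mHep arrays. The arrays of the media did not overlap, the difference of the readings was 8.55 ± 0.45 (adjusted p = 0.00198), and Cd36 was 1 of the 2 genes that passed without the mouse block. A further Cd36 probe differed by 10.73. On the primary array Cd36 was not well above background.

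Muc13, a transmembrane mucin of apical epithelial surfaces, read -6.34, -4.82 and -3.07 in eHep and -0.06, 2.81 and 3.81 in mHep, a difference of 6.59 ± 0.45 (adjusted p = 0.00381), and was dark on the primary array. Spink1, a secreted inhibitor of trypsin, went from -7.02, -4.63 and -2.07 to 0.51, 3.21 and 4.81, a difference of 7.97 ± 0.60 (adjusted p = 0.00513). In mHep of mouse 1 it stood at 3.21 to 4.81 and in mouse 3 at 4.04, above the primary array at 0.94. In mHep of mouse 2 it read 0.51 to 2.38, on both sides of the primary array. Tmc5, of the transmembrane channel-like family, rose by 6.87 ± 0.38 (adjusted p = 0.00198), with 1 of 7 eHep arrays above background, and on the primary array it was fainter (-0.99) than on any mHep array (0.24, 1.16 and 2.70).

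Some rises were bright on the primary array. Apcs, which encodes serum amyloid P component, differed by 6.76 ± 0.67 (adjusted p = 0.0124), Spp2, a secreted phosphoprotein, by 6.31 ± 0.70 (adjusted p = 0.0183) and A1cf, the partner of the APOBEC1 editing enzyme that acts on Apob RNA, by 5.37 ± 0.43 (adjusted p = 0.00671). Their highest mHep arrays read 2.86, 4.50 and 1.93, all below the primary array at 6.54, 6.42 and 4.92. Iigp1, an interferon-inducible GTPase, rose by 6.36 ± 0.39 (adjusted p = 0.00259) from -5.87, -2.96 and -1.04 to 1.24, 3.60 and 5.67, and here the mHep arrays of mouse 1 (4.38 to 5.67) spanned the primary value of 4.69. Smlr1, a small leucine-rich membrane protein, rose by 5.91 ± 0.50 (adjusted p = 0.00788), with differences of 4.90, 5.89 and 6.95.

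Several rises started from eHep arrays that were all dark, so their folds are lower limits; all but Wfdc21, which its list names, were named after their values were seen. Wfdc21, a WAP-domain protein, was at least 108.9-fold higher (adjusted p = 0.0182) and brightest in mouse 1 (3.69 to 6.07, against -1.62 to 1.02 in mouse 2). Rdh7, of the retinol dehydrogenase family, was at least 77.7-fold higher (adjusted p = 0.00817), Aadac, a lipase of the endoplasmic reticulum, at least 35.7-fold (adjusted p = 0.0186) and Leap2, a peptide that blocks the ghrelin receptor, at least 14.1-fold (adjusted p = 0.0113). Scara5, a ferritin receptor, was at least 27.3-fold higher on its brightest probe (adjusted p = 0.0153), while its other probe differed by 1.12. Derl3, which serves the removal of misfolded proteins from the endoplasmic reticulum, was at least 7.56-fold higher (adjusted p = 0.016).

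**Figure D2:**
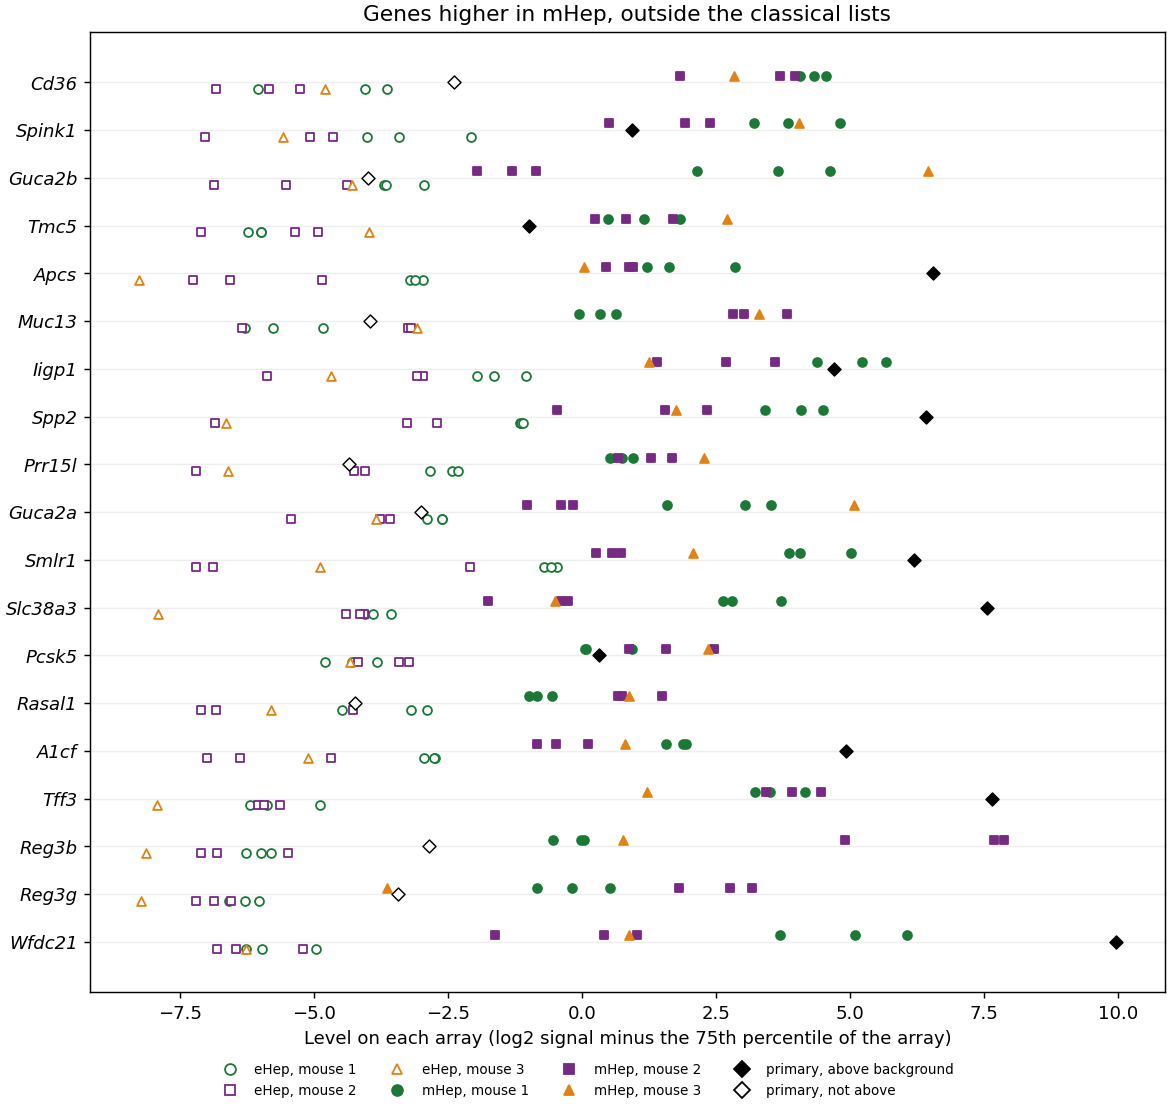
Level on each array (horizontal axis, log2 signal minus the 75th percentile of the array) of the 15 largest rises outside the classical lists among genes above background on at least 1 eHep array, and of Tff3, Reg3b, Reg3g and Wfdc21, which were dark on all eHep arrays; open symbols are eHep arrays, filled symbols mHep arrays, shapes and colours the mice, and diamonds the primary array (open where not well above background). In each row all mHep symbols lie to the right of all eHep symbols; Cd36, Guca2b, Muc13, Prr15l, Guca2a, Rasal1, Reg3b and Reg3g have an open diamond.

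Of the 93 rises outside both lists, 69 were well above background on the primary array (74.2%) and 24 were not; in the liver list 105 of 109 were (96.3%), and among all genes tested 69.1%. The 4 of the liver list that were not were Cyp2b13, Cyp2c65, Cyp2c66 and Slc10a6. The single primary array was the dimmest of the series, so a dark reading there means only a level under about its limit, and no difference from primary cells was tested. Beside Cd36, Muc13, the guanylins and the Reg3 genes, the 24 held 18 genes, each named after its values were seen unless a rule below names it. Eps8l3, related to the actin regulator EPS8, read 2.78, 3.79 and 5.60 on the lowest, middle and highest mHep arrays against -2.85, -0.41 and 1.22 in eHep, a difference of 4.54 ± 0.45 (adjusted p = 0.0133), and -2.73 on the primary array. Fam107a differed by 5.21 ± 0.81 (adjusted p = 0.0416), but 7.69 in mouse 2 against 3.73 and 4.21 in mice 1 and 3. Prr15l differed by 6.17 ± 1.01 (adjusted p = 0.0477), although its other probe moved by only 0.29. Rasal1, which switches Ras off, differed by 5.48 ± 0.88 (adjusted p = 0.0459), with 2.72, 7.03 and 6.68 in mice 1, 2 and 3. The remaining 14 rose by 2.33 (Dbx2) to 4.79 (Ly6f), with Tesc, a calcium-binding protein, at 3.01 ± 0.38 (adjusted p = 0.0259) and Clrn3, a clarin, at 3.33 ± 0.45 (adjusted p = 0.0296).

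Lists of genes outside the classical ones were counted without a test. Among cell-surface Ly6, tetraspanin, mucin and CD antigens, 7 of 112 genes tested were higher (6.25% against 1.38% of all genes) and none lower in limma, where 12 had an unadjusted p under 0.05 on that side; the median difference was 0.18. The 7 were Cd36, Ly6d, Muc13, Ly6f, Ceacam2, Cd200 and Ly6c1. Ly6d, a GPI-anchored surface protein, read -7.24, -5.55 and -5.19 on the eHep arrays, all dark, and 0.30, 1.87 and 3.28 on the mHep arrays, at least 70.8-fold higher (adjusted p = 0.00513). Ceacam2, an adhesion molecule, rose by 4.70 ± 0.38 (adjusted p = 0.00697); it has a close paralog, Ceacam1, beside it, and the array cannot fully separate them. Ly6f rose by 4.79 ± 0.54 (adjusted p = 0.0186) and Ly6c1, a leukocyte and endothelial surface antigen, by 2.52 ± 0.41 (adjusted p = 0.0474); both belong to a family of near-identical neighbours, and Ptprc, the pan-leukocyte antigen, was above background on 1 of the 14 arrays. Cd200 was dark on all eHep arrays and at least 1.6-fold higher.

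Solute carriers outside the classical liver families counted 7 of 197 higher in limma (3.55%, against 1.38% of all genes). None were lower (0.452% of all genes), 8 had an unadjusted p under 0.05 on that side, and the median was 0.15. Slc38a3, which carries glutamine, rose by 5.90 ± 0.81 (adjusted p = 0.0317), by 6.88 and 7.41 in mice 1 and 3 but 3.40 in mouse 2. Slc17a3 and Slc17a1, neighbouring phosphate and urate carriers, both rose, and Slc17a3 was at least 8.77-fold higher (adjusted p = 0.0191). Of the 6 other scaling, background and probe settings, Slc38a3 kept its call under 2 and Slc17a3 under 1. Slc46a3, a lysosomal carrier, rose by 3.64 ± 0.40 (adjusted p = 0.018), Slc41a2, a magnesium carrier, by 3.26 ± 0.53 (adjusted p = 0.0474) and Slc6a13, a GABA and taurine carrier, by 3.18 ± 0.42 (adjusted p = 0.0285). Slc51b, a subunit of the bile acid exporter OST and no member of that list, was at least 19.3-fold higher (adjusted p = 0.0455), and kept its call under 1 of the 6 other scaling, background and probe settings. Pdzk1, a scaffold that holds transporters at the apical membrane, was at least 8.47-fold higher (adjusted p = 0.0191).

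Enzymes of phospholipids, sphingolipids and lipid mediators held genes of both directions, 4 higher and 2 lower of 148 (2.70% and 1.35%, against 1.38% and 0.452% of all genes). Ptgs2 and Hpgd stand at opposite ends of one pathway, since cyclooxygenase 2 makes prostaglandins and 15-hydroxyprostaglandin dehydrogenase inactivates them. Ptgs2 fell by 4.92 (SE 0.39; adjusted p = 0.00629), from -1.96, 1.21 and 4.04 on the lowest, middle and highest eHep arrays to -6.89, -4.05 and -1.15 in mHep. Mouse 2 had the highest eHep array and its 2 brightest mHep arrays, -1.15 and -1.74, overlapped the eHep arrays of mouse 1. Hpgd rose by 5.14 ± 0.46 (adjusted p = 0.00864), from -6.41, -4.98 and -3.62 to -3.0, 0.54 and 2.23, and its arrays did not overlap. Acsbg1, an acyl-CoA synthetase, fell by 5.94 (SE 0.59; adjusted p = 0.0124), from -0.27, 1.62 and 2.61 to -7.64, -3.96 and -2.84, with no overlap. Plin5, a lipid droplet protein, rose by 4.76 ± 0.41 (adjusted p = 0.00803) and Sgpp2, a phosphatase of sphingosine 1-phosphate, by 3.49 ± 0.38 (adjusted p = 0.0182), while the other Sgpp2 probe differed by 0.33.

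Proteases and protease inhibitors other than serpins counted 4 higher and 1 lower of 119 (3.36% and 0.840%, against 1.38% and 0.452% of all genes). Beside Spink1 and Wfdc21, Pcsk5, a convertase that cleaves precursor proteins, rose by 5.53 ± 0.50 (adjusted p = 0.00908) on its brightest probe, but the lowest of its 6 probes differed by -0.04 and the call was lost with the mean of all probes. Tmprss6, a membrane protease that lowers hepcidin production, rose by 4.82 ± 0.54 (adjusted p = 0.0182). Cst6, a cystatin, fell by 3.20 (SE 0.42; adjusted p = 0.0285).

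Growth factors and receptor tyrosine kinases counted 3 of 69 higher in limma (4.35%, against 1.38% of all genes). None were lower (0.452% of all genes), 10 had an unadjusted p under 0.05 on that side, and the median was -0.20. Erbb3, a receptor that pairs with other ERBB kinases, read -4.93, -1.92 and -1.28 in eHep and -0.58, 3.02 and 3.90 in mHep, a difference of 4.79 ± 0.37 (adjusted p = 0.00615), and the lowest of its 5 probes differed by 0.99. Nrg4, a neuregulin ligand of ERBB4, rose by 4.27 ± 0.56 (adjusted p = 0.0279), and Wnt4, a secreted Wnt ligand, by 2.94 ± 0.40 (adjusted p = 0.0317); Wnt4 was dark on the primary array, and its call was lost without mouse 2. Axin2, a target and brake of the Wnt pathway, went the other way, well above background on all 7 eHep arrays and on none in mHep, at least 6.54-fold lower (adjusted p = 0.0162). Gcgr, the glucagon receptor, rose by 4.71 ± 0.58 (adjusted p = 0.0246). Like Nrg4, Gcgr kept its call under 2 of the 6 other scaling, background and probe settings. It was the only called gene of 130 G protein-coupled receptors and regulators (0.769%, under the 1.38% of all genes higher). Sgk2, a kinase, rose by 4.30 ± 0.38 (adjusted p = 0.00864). It was the only gene called higher among 266 of MAPK, PI3K and phosphatase signalling (0.376%), of which 3 were called lower (1.13%, against 0.452% of all genes).

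Of 204 lysosome, endosome and autophagy genes and 15 clock genes none passed the test in limma (1.84% of all genes). Their medians were -0.05 and 0.19, and 12 and 2 had an unadjusted p under 0.05. Of 208 peroxisome and mitochondrial upkeep genes, Coq8a alone passed (0.481%, under the 1.38% of all genes higher), a kinase-like protein needed to make coenzyme Q, with differences of 3.90, 3.74 and 3.94 in mice 1, 2 and 3 (adjusted p = 0.0112) and 1.71 on its other probe. A list of long non-coding RNAs and of genes under clone or predicted names counted 5 of 776 higher (0.644%, under the 1.38% of all genes). Gm4788, dark in eHep and at least 81.3-fold higher, carries a protein-coding RefSeq accession, as do 2010003K11Rik and 1810010H24Rik among the 5. Developmental transcription factors counted 1 higher and 2 lower of 170 (0.588% and 1.18%, against 1.38% and 0.452% of all genes). The riser, Lhx1, rested on 1 of 2 probes (2.42 ± 0.39, the other -0.52) and was lost without mouse 2 and without mHep array 1 of mouse 2.

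Ptprb, a receptor tyrosine phosphatase best known from endothelium, had the largest fall of the calls. It read 0.13, 1.43 and 3.15 on the lowest, middle and highest eHep arrays and -7.65, -4.16 and -3.48 on the mHep arrays; it fell by 6.49 (SE 0.42; adjusted p = 0.00331), while the weakest of its 4 probes differed by -0.95. The media did not overlap, and the primary array read 0.21, among the lower eHep arrays. Of 12 endothelial markers, Cdh5, Emcn, Erg, Pecam1 and Tie1 were not above background on any of the 14 arrays, and Egfl7 and Stab2 were on all. Clec4g was above background on 6 eHep arrays and 1 mHep array, Vwf on 4 and 0, Kdr on 3 and 1, Tek on 1 and 0 and Lyve1 on 0 and 1. The summed linear level of the 12 endothelial markers was 0.81 to 6.56 in eHep and 2.18 to 6.69 in mHep. Egfl7 was the brightest of them in every mouse and medium (means of -0.58 to 2.38), so the sum says little of the others. The part of such cells in the fall of Ptprb was not tested. Lmcd1, a LIM-domain regulator of transcription, fell by 5.0 (SE 0.56; adjusted p = 0.0182) and Tnnt2, cardiac troponin T, by 4.39 (SE 0.57; adjusted p = 0.0277). They were the 2 called genes of 77 muscle and contractile genes (2.60%, against 0.452% of all genes lower). In mHep of mouse 3 Tnnt2 still read -0.05, above eHep of mouse 1 (-0.89 to -0.67), and its other probe differed by -1.09. Ripor2, an inhibitor of RhoA, fell by 4.28 (SE 0.63; adjusted p = 0.0365), and its 4 probes ranged from -4.28 to -1.32.

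Extracellular matrix genes and their enzymes counted 6 lower and 1 higher of 124 (4.84% against 0.452% of all genes lower), with a median of -0.29. Pcolce2, which enhances the trimming of procollagen, fell by 4.20 (SE 0.47; adjusted p = 0.0186), from -0.31, 0.28 and 0.78 to -4.81, -3.44 and -2.89, with no overlap. Vcan, the proteoglycan versican, fell by 3.39 (SE 0.37; adjusted p = 0.0182), although its 5 probes ranged from -3.39 to -0.33. Mmp10, stromelysin 2, was dark on all mHep arrays and at least 5.48-fold lower (adjusted p = 0.0441), and Thbs1, thrombospondin 1, fell by 2.99 (SE 0.47, adjusted p = 0.0438). Mmp10 and Thbs1 each kept the call under 1 of the 6 other scaling, background and probe settings. The other 2 falls, the proteoglycan Gpc1 and the TGF-beta binding protein Ltbp1, and the rise, the protease Adamts15 (4.77 ± 0.60; adjusted p = 0.0266), complete the list. Of the matrix calls, 2 remained under quantile normalization. Of 12 stellate cell and fibroblast markers, Des, Lum and Pdgfrb were dark on all 14 arrays and Acta2 was above background on all. Dcn was above background on 3 eHep and 7 mHep arrays, Col1a2 and Ngfr each on 5 and 5, Col1a1 on 3 and 0, Hand2 and Lrat each on 2 and 0, Reln on 2 and 1 and Col3a1 on 1 and 1. The summed level of the 12 markers was 15.3 to 33.6 in eHep and 17.3 to 31.0 in mHep. Acta2 was the brightest of them in every mouse and medium (means of 3.89 to 4.78), so the sum says little of the others. The part of such cells in these falls was not tested.

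The bases before Acsbg1 (chr9:54661886-54662135, minus strand) and Mmp10 (chr9:7502092-7502341, plus strand) are shown for the falls, in the same form. Acsbg1 holds an HNF4 match at 207 bases and NF-Y matches at 83 and 53 bases before the start, and Mmp10 a FOXA match at 199 and an AP-1 match at 63 bases:
Acsbg1: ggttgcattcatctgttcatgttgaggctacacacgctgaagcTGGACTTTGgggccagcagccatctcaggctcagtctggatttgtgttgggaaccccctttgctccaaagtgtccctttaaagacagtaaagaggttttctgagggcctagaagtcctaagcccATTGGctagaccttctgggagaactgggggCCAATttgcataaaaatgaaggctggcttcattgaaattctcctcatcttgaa
Mmp10: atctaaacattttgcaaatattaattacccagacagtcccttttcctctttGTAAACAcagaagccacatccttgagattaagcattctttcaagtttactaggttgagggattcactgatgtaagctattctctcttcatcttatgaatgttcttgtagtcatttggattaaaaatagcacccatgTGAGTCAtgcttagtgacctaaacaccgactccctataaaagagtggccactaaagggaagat

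Signalling genes among the falls included Dusp2 and Dusp4, phosphatases that switch off MAP kinases, which fell by 3.44 (SE 0.44; adjusted p = 0.0276) and 2.96 (SE 0.39; adjusted p = 0.0293). Dusp2 was faint, above background on 5 eHep arrays and 1 mHep array, its other probe differed by -0.79, and it passed under none of the 6 other scaling, background and probe settings. Etv4, an ETS factor induced by that pathway, fell by 3.33 (SE 0.44; adjusted p = 0.0279) without overlap, from -0.36, 0.92 and 1.20 to -3.62, -2.72 and -1.33. Prrx2, a homeobox factor of mesenchyme, fell by 3.74 (SE 0.60; adjusted p = 0.0464), but it was bright only in eHep of mouse 2 (1.84 as a mean, against -4.28 and -4.69 in mice 1 and 3). Ckb, brain creatine kinase, fell by 3.31 (SE 0.40; adjusted p = 0.0229), from 1.5, 1.85 and 5.39 to -2.25, -0.67 and 2.12; each mouse fell by 3.00 or more, yet the highest mHep arrays, of mouse 2, overlapped the eHep arrays of the other mice. Fxyd5, a regulator of the sodium pump, fell by 3.95 (SE 0.46; adjusted p = 0.0191), and Padi2, an arginine deiminase, by 3.72 (SE 0.49; adjusted p = 0.028).

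Of 242 microtubule, cilium and septin genes, 2 fell (0.826%, against 0.452% of all genes) and none rose (1.38% of all genes) in limma. On the higher side 7 had an unadjusted p under 0.05. Spag5, astrin of the spindle, fell by 3.42 (SE 0.40; adjusted p = 0.0191) and on its other probe by 3.03. Kifc1, a minus-end kinesin, fell by 3.31 (SE 0.47; adjusted p = 0.0327) and Kifc5b by 3.19 (SE 0.45; adjusted p = 0.0332), but these are near-identical copies and may share signal. H2ac4, one of many near-identical histone genes, fell by 3.63 (SE 0.59; adjusted p = 0.0467) and is equally uncertain. Trim59, a ubiquitin ligase, and Hs6st2, a heparan sulfate sulfotransferase, fell by nearly the same amount in every mouse, -2.59, -2.68 and -2.54 and -2.63, -2.65 and -2.57. Rdh10, which makes retinaldehyde from retinol, fell as evenly, from 4.22, 4.90 and 6.06 in eHep to 1.58, 2.52 and 3.42 in mHep, with differences of -2.66, -2.52 and -2.60 (adjusted p = 0.0333).

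**Figure D3:**
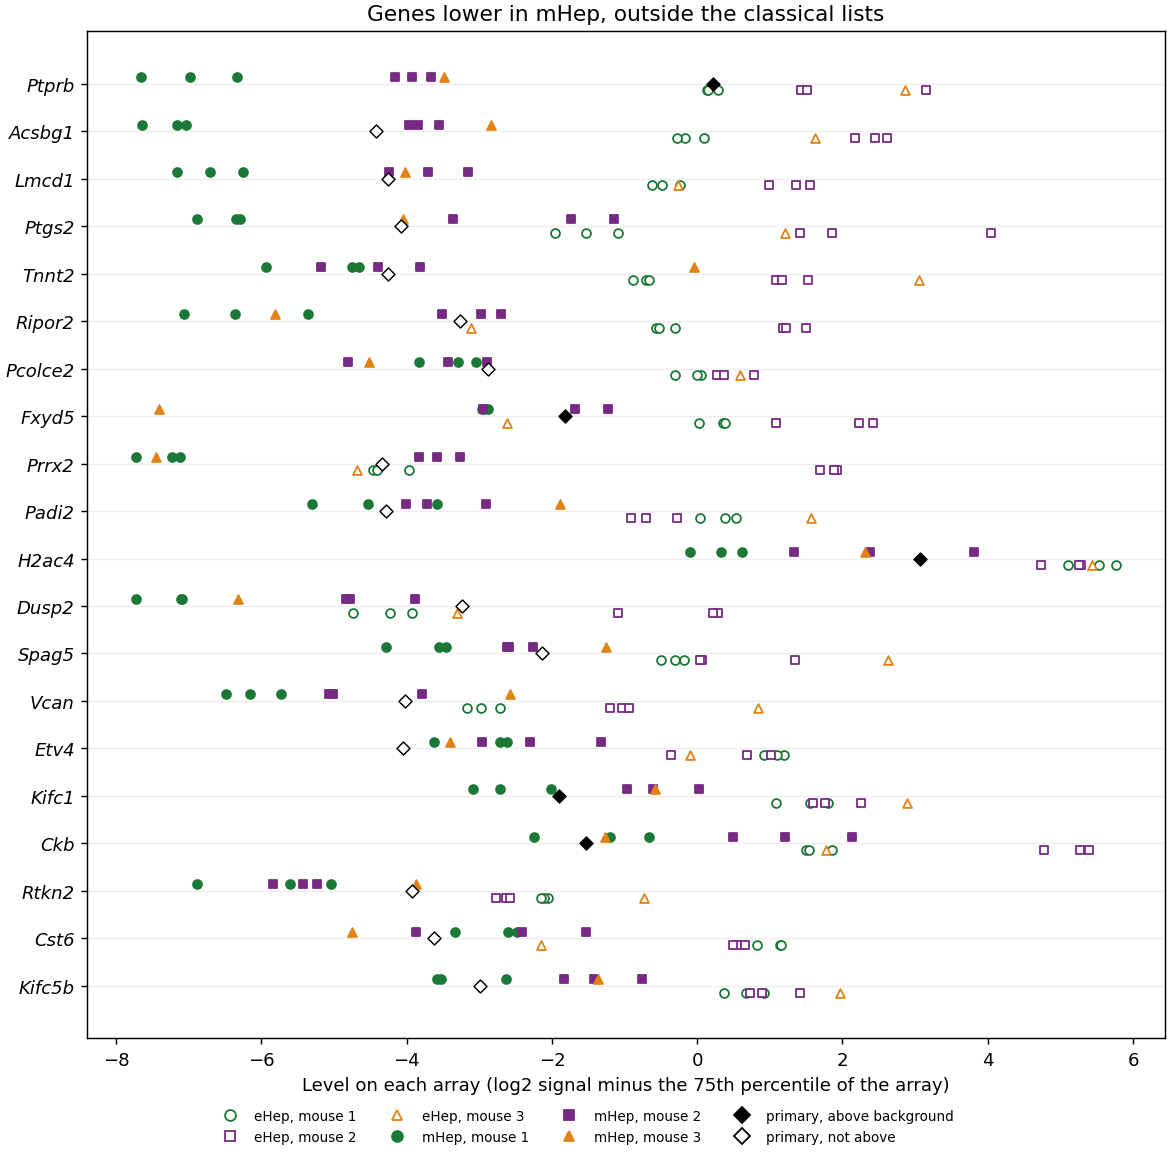
Level on each array (horizontal axis, log2 signal minus the 75th percentile of the array) of the 20 largest falls outside the classical lists among genes above background on at least 1 mHep array, which leaves out Axin2, Chrna1, Greb1l and Mmp10; open symbols are eHep arrays, filled symbols mHep arrays, shapes and colours the mice, and diamonds the primary array (open where not well above background). Within each mouse the filled symbols lie to the left of the open ones, while across mice some rows overlap, such as Prrx2, Dusp2, Fxyd5 and Ckb.

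Of the 48 falls outside both lists, 10 were well above background on the primary array (20.8%), as were 7 of the 18 falls of the division list (38.9%). Of the 6 genes dark on every mHep array, 5 were also dark there, among them Chrna1, the muscle acetylcholine receptor subunit (at least 4.24-fold lower; adjusted p = 0.0296), and Greb1l (at least 4.68-fold; adjusted p = 0.0305). The remaining one, the chemokine Ccl6, read -0.10 on the primary array, and it was at least 2.21-fold lower in mHep (adjusted p = 0.0354). Of the 6 other scaling, background and probe settings, Chrna1 passed under none, and Greb1l and Ccl6 each under 1. These 3 were named after their values were seen or by their lists.

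How steady the named genes were differed. Of the 15 largest rises and 20 largest falls outside the lists, taken among genes with at least 1 array of the lower medium above background, 10 passed under all 6 other scaling, background and probe settings: Cd36, Spink1, Tmc5, Apcs, Muc13, Iigp1, Smlr1, A1cf, Acsbg1 and Ckb. The others passed under 5 (6 genes), 4 (4 genes), 3 (5 genes), 2 (7 genes), 1 (2 genes, Prrx2 and Ripor2) or none (Dusp2). On the level of single arrays, 401 genes had all 7 mHep arrays above all 7 eHep arrays (2.75% of genes tested) and 415 all below (2.84%); of the calls, 158 of 202 rises and 43 of 66 falls were so separated.

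The 3 mice differed in which genes changed. Over the 13909 genes outside both lists, the differences correlated across genes at 0.42 between mice 1 and 2, 0.11 between mice 1 and 3 and 0.56 between mice 2 and 3; genes are not independent replicates, and each value is a description. Among genes that differed at least 2-fold in both mice of a pair, the direction was shared by 83.7% of 1892 genes for mice 1 and 2, 89.2% of 1715 for mice 2 and 3, and 49.3% of 2129 for mice 1 and 3. Mice 1 and 3 are of the same strain, while mouse 2 is of the other; the arrays of mouse 3 were read in the earlier scan with 1 pair of mouse 2, and all those of mouse 1 in the later scan, so animal and scan cannot be told apart for mice 1 and 3. Mouse 2 was read in both scans, and its earlier-scan and later-scan differences correlated at 0.79, with 98.7% of 2182 genes in the same direction. Within the later scan mice 1 and 2 correlated at 0.42 (84.7% of 1927 genes alike), and within the earlier scan mice 2 and 3 at 0.58 (91.7% of 1962 genes alike). Wdfy1, chosen after its values were seen, read 3.64 and 3.63 on the arrays titled eHep3 and mHep3 and 3.70 to 4.81 on those of mouse 1, but -0.70 to -0.14 on the 6 arrays of mouse 2.

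**Figure D4:**
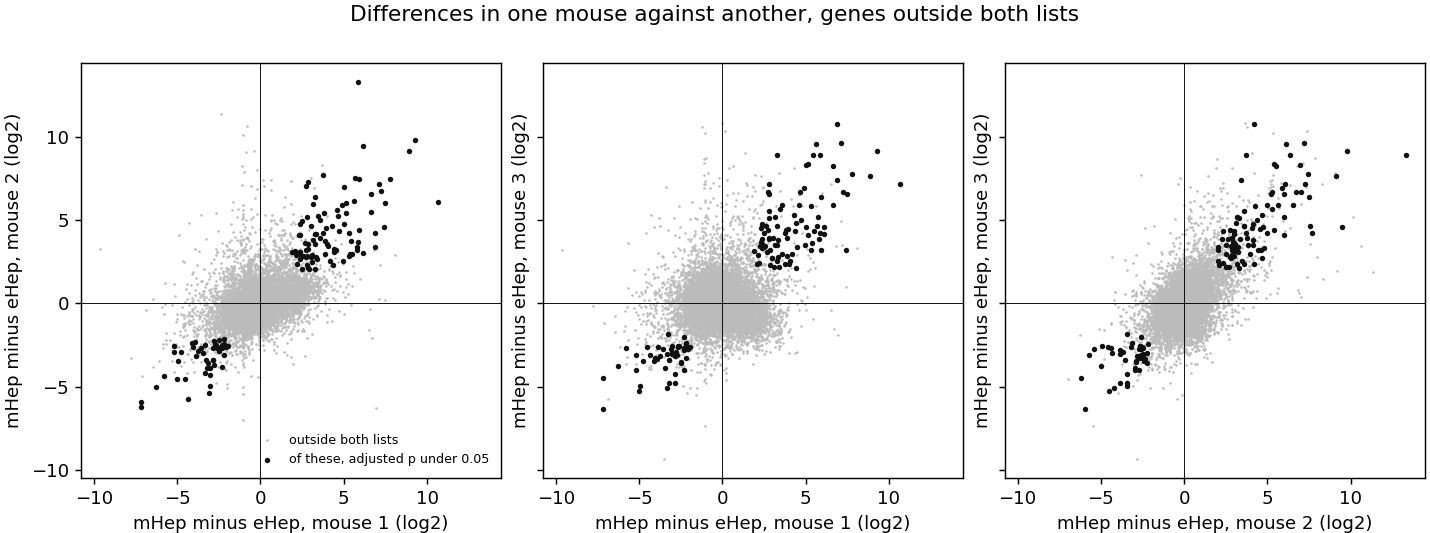
Difference between mHep and eHep (log2) in one mouse against another for the genes outside both lists, 1 panel per pair of mice; grey points are genes tested and black points those past an adjusted p of 0.05. The grey cloud rises along the diagonal for mice 2 and 3 (r = 0.56 across genes) and is nearly round for mice 1 and 3 (r = 0.11); the black points lie in the 2 quadrants of shared direction by the test's own demand.

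Mice 1 and 2 had 3 arrays in each medium, so the changes of these 2 animals were set against the spread between arrays of a mouse. With 1 mouse on each side and arrays that may share a culture, the p-values cover that spread alone and not the spread between animals. limma's interaction on 12 arrays passed an adjusted p of 0.05 for 2464 genes (16.9% of those tested), more positive in mouse 2 for 1559 and more negative for 905. In 1525 of them the changes had opposite signs, and 288 were 2-fold or more in both mice. The count fell to 289 and 227 without array 1 or array 2 of each mouse, was 2666 without array 3, and was 648 with the normexp background. Of the 268 genes called over all mice, 66 also passed the interaction. Strain, animal and culture cannot be told apart in these 2 mice.

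The 8 largest opposite changes were in genes that the call over 3 mice left out. S100a9 and S100a8 encode the subunits of calprotectin, abundant in neutrophils and in stressed epithelium. S100a9 read -2.16 to -1.35 in eHep and -4.59 to -3.39 in mHep of mouse 1, but -5.85 to -5.37 in eHep and 5.04 to 6.62 in mHep of mouse 2, a difference of changes of 13.73 (limma interaction, adjusted p = 6.62e-07). S100a8 differed by 9.54 (limma interaction, adjusted p = 6.62e-07), with 2.18 to 2.96 against 5.89 to 6.64 in mHep of mice 1 and 2. In mouse 1 its eHep arrays read 2.72 to 3.32 and overlapped the mHep arrays. Its change was only -0.39 there, against 9.15 in mouse 2. In mouse 3 the changes of S100a9 and S100a8 were 1.9 and 1.92 and the mHep array read -4.09 and -3.57, far under mouse 2. Both genes are on the list of lymphocyte and blood cell markers, whose summed level ran from 0.17 to 10.9 in eHep and from 0.30 to 172 in mHep. S100a8 and S100a9 were themselves its brightest members in mHep of mouse 2 (means of 6.24 and 5.72). Ptprc was above background on 1 of 14 arrays and Nkg7 and Ppbp on none, and the part of blood cells was not tested.

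Cxcl12, a chemokine that stromal cells and liver make, went in the other direction, from -6.59 to -4.65 in eHep to 0.59 to 2.00 in mHep of mouse 1, and from 0.50 to 2.19 down to -6.0 to -4.61 in mouse 2 (interaction -13.19; adjusted p = 1.99e-05). The primary array read 6.96. Ch25h, cholesterol 25-hydroxylase, was bright only in eHep of mouse 1 (5.47 to 5.90) and read -4.62 to -3.17 in its mHep arrays, while mice 2 and 3 changed by 3.25 and 3.17 (interaction 12.85; adjusted p = 0.0004). Adh1, the main alcohol dehydrogenase of liver, changed by -3.26 in mouse 1 and by 8.84 and 7.65 in mice 2 and 3 (interaction 12.11; adjusted p = 5.24e-05), so its mean difference of 4.41 ± 2.25 missed the threshold (adjusted p = 0.433). Bcl2l15, of the BCL2 family, changed by -4.28, 4.81 and 5.29 (interaction 9.09; adjusted p = 2.86e-07), and Sprr2h, a cornified envelope protein, by -4.88, 4.11 and -0.21 (interaction 8.99; adjusted p = 8.21e-05). Sftpd, the lung collectin surfactant protein D, changed by -0.99 in mouse 1 and by 7.85 and 8.71 in mice 2 and 3 (interaction 8.84; adjusted p = 0.00994). All but Sftpd passed under each of the 7 interaction alternatives; Sftpd passed under 5.

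**Figure D5:**
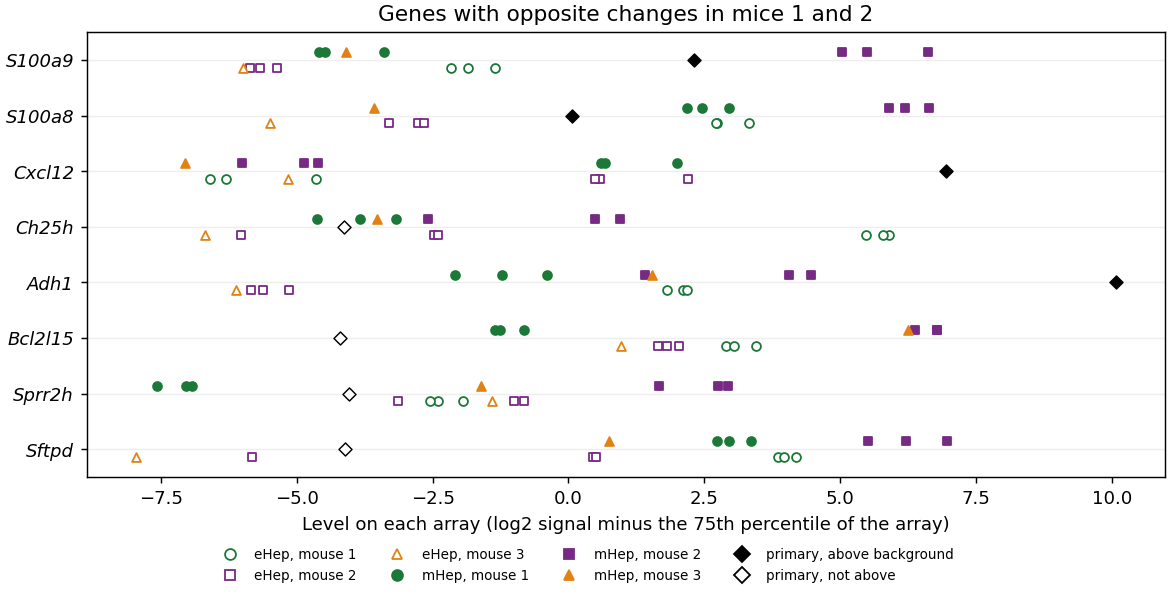
Level on each array (horizontal axis, log2 signal minus the 75th percentile of the array) of the 8 genes with the largest opposite changes in mice 1 and 2; open symbols are eHep arrays, filled symbols mHep arrays, shapes and colours the mice, and diamonds the primary array (open where not well above background). For S100a9 the filled squares of mouse 2 lie at 5.04 to 6.62, to the right of every other symbol, and for Cxcl12 they lie to the left of the filled circles of mouse 1.

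Some rises lay near another rise on the chromosome. Of 197 rises placed on the RefSeq annotation, 52 had another rise within 100 kb (26.4%), against 3.72% of 12931 genes tested; of 62 placed falls none had another fall so near, against 1.35%. The rises formed 22 such clusters, most of them of classical families in which probes can share signal between copies, such as the Cyp2d, Serpina3 and Orm genes. Clusters with no classical member were Slc17a3 with Slc17a1, Acat3 with Acat2, both acetyl-CoA acetyltransferases, Guca2a with Guca2b and Reg3b with Reg3g.

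The promoter table of RefSeq (250 bases before to 50 after each start, build GRCm38.p6) had an entry for 66 of the 93 rises and 31 of the 48 falls outside both lists, and for 27025 genes in all. The motifs searched on both strands were HNF4 (CAAAGTCCA), HNF1, FOXA (TGTTTAC), C/EBP (TTGCGCAA), NF-Y (CCAAT), CHR (TTTGAA or TTCGAA), E2F (TTTCCCGC), AP-1 (TGANTCA), TEAD (GGAATG) and TCF (CTTTGAT). Matches of different motifs may overlap. Shares are also given for the 10326 genes tested that had an entry. NF-Y was found in 61.3% of the falls and 30.3% of the rises, beside 42.8% of genes tested and 41.1% of all genes. CHR was found in 29.0% of the falls and 22.7% of the rises, beside 16.5% of genes tested and 21.7% of all genes. HNF4 was found in 2 rises (3.03%; Muc13 and Pdzk1) and 1 fall (Acsbg1), beside 0.6% of genes tested and 0.555% of all genes. FOXA was found in 4.55% of the rises and AP-1 in 15.2%, beside 3.32% and 6.58% of genes tested and 4.05% and 8.97% of all genes. CHR matches among the falls included Kifc1, Spag5, Trim59 and Ripor2. A match is a description of letters, and no test was made.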

How the data were processed

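Total RNA was hybridised to 1-colour Agilent arrays. Per the file headers, the authors' scanner files came from Feature Extraction, version 10.7.1.1 on some arrays and 10.7.3.1 on others (protocol GE1_107_Sep09), and the processed signal they deposited is an intensity that was background-subtracted but not scaled between arrays. The flags for being well above background, saturated or an outlier come from the same files; 0 probes were saturated. The deposited value table holds log2 values whose quartiles are equal on all arrays and which correlated with the log2 processed signal at 0.972 to 0.9999; how the authors made it is not given in the sources used here, and neither its scale nor its centring is stated.

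Spots of a probe were averaged without outlier spots (43379 spots, 41174 probes). Probes were named by RefSeq accession (27761), current symbol (5531) or former symbol (460), and 7422 kept the name the file gives; a gene is its probe with the highest mean (27339 names, 9046 with several probes). Log2 signals minus the 75th percentile of the array were averaged per mouse and medium and fitted with limma 3.58.1 in R 4.3.3, with the mouse as a block and Benjamini-Hochberg adjustment over the 14591 genes that every array of 2 or more mice in one medium read well above background. The labels tie the eHep and mHep arrays of a mouse, and their deviations correlated at 0.397, 0.563 and 0.538 within mice 1, 2 and 3 and at 0.00981 at most between mice. Deviations are from the mean of the 3 mice in a medium, so positive values within mice in part force negative ones between mice. Mice 1 and 3 also differ in scan, so these values cannot decide the pairing. The number of arrays limits the precision. The fit was tested on simulated data.

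Genes were named by rule: the 15 largest rises and 20 largest falls outside both classical lists among genes above background on at least 1 array of the lower medium (clone, predicted and LOC names skipped), up to 5 per list, the 6 most alike in the 3 mice and the 8 largest opposite changes in mice 1 and 2; others are said to be chosen after their values were seen. The comparison, the 22 lists, the 7 marker lists and the tests were chosen with earlier results of these data known. A gene dark on all arrays of the lower group has a lower limit, taken against the lowest signal well above background on each array (or the reading itself where that is higher). The summed level of a marker list adds linear levels relative to the 75th percentile, so its brightest probes weigh most.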

Additional observations from a re-analysis of the deposited data

Results flagged for a closer look

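Among the 7 mHep arrays, 1 stood far from the others in brightness: the 75th percentile of the signal of array 1 of mouse 2 was 255.7, against a median of 626.8. Chance flags about 1 in 20 such groups.

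For the following named genes the change in mouse 2 differed from that in mouse 1 by limma's interaction at an adjusted p of 0.05, given as the change in mouse 2 minus that in mouse 1 on the log2 scale. Among the genes outside the calls the differences were 13.73 for S100a9, 9.54 for S100a8, 12.85 for Ch25h, 12.11 for Adh1, 9.09 for Bcl2l15, 8.99 for Sprr2h, 8.84 for Sftpd and -13.19 for Cxcl12. Among the rises they were 7.45 for Reg3b, 4.43 for Slc51b, 4.31 for Rasal1, 3.96 for Fam107a, 3.31 for Reg3g, 3.12 for Prr15l, 2.80 for Adamts15, 2.36 for St6galnac2, -2.84 for H2-Q1, -3.48 for Slc38a3 and -4.60 for Wfdc21. Of these, Reg3b, Slc51b, Reg3g and Wfdc21 were dark on all eHep arrays. Among the falls they were 2.60 for H2ac4, 1.7 for Kifc1, 1.49 for Axin2, -1.90 for Mmp10 and -2.32 for Prrx2; Axin2 and Mmp10 were dark on all mHep arrays. The p-values cover the spread between arrays of 1 mouse on each side. The value for Axin2 took both signs over the 7 alternatives of the interaction (-0.15 to 1.88), with adjusted p from 0.0307 to 0.956, and Kifc1 passed under 1 of them. Reg3b passed under 6 of the 7, with adjusted p from 0.0003 to 0.0506.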

How the results depend on the processing

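Against 268 calls (202 higher, 66 lower), normexp background gave 176 (38 lower), the percentile over probes detected on all arrays 118 (105 and 13), quantile normalization 104 (91 and 13) and the values the authors deposited 110 (94 and 16). Without a filter 657 passed (433 and 224), and among probes detected on all arrays 149 (93 higher). Without the replicate block 2 passed (2 and 0; 658 higher and 638 lower had an unadjusted p under 0.05 in limma). With the 14 arrays as samples and a mouse term 5018 passed (1934 and 3084), with slide added 3005 (1073 and 1932) and with scan added 6173 (2327 and 3846). Arrays of a mouse are then taken as independent. The fit with slide cannot separate medium from slide in mice 1 and 3, whose media were on different slides. The earlier scan alone, 1 array pair from each of mice 2 and 3, gave 1524 (1013 and 511), and the later scan alone 470 (326 and 144). Leaving out 1 mouse gave 513 to 822 calls (351 to 629 higher, 162 to 238 lower). The cause of these differences was not tested. The alternatives chosen after seeing the data, without the earlier-scan array pair of mouse 2 (239 calls) and without array 1 of mouse 2 in mHep (299), stayed within 1.5 times of the main count, as did the mean of all probes (236) and low readings raised to the background limit (288).

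The interaction of mice 1 and 2 (2464 genes) gave 648 with normexp and 227 to 2666 with 1 array number left out; with the array number as a replicate block it gave 2301. Array numbers come from the labels, which do not say that they mark a shared day. No named call changed direction under any setting.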

Other observations

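Other genes called by their lists changed in ways the text has not yet described. H2-Q1, a class I histocompatibility gene with near-identical copies, rose by 5.08 ± 0.81 (limma, adjusted p = 0.0441), by 7.43 in mouse 1 and 4.59 and 3.21 in mice 2 and 3. Il17rb, a receptor for interleukin 25, was dark on all eHep arrays and at least 2.65-fold higher (adjusted p = 0.0396), while Traf1, an adaptor of TNF receptors, fell by 2.75 (SE 0.44; adjusted p = 0.0443). Sema6d, a semaphorin, rose by 2.62 ± 0.42 (adjusted p = 0.0461), and Scn8a, a voltage-gated sodium channel, by 3.21 ± 0.46 (adjusted p = 0.0354); both were dark on the primary array. Il17rb and Scn8a passed under 0 of the 6 other scaling, background and probe settings, and Sema6d under 1. St6galnac2, a sialyltransferase, rose by 3.50 ± 0.54 (adjusted p = 0.0411) on its brightest probe, while another of its 3 probes differed by 0.22. Ube2c, which feeds the anaphase-promoting complex, fell by 3.05 (SE 0.46; adjusted p = 0.0381), from 1.61, 2.96 and 4.19 to -1.22, 0.10 and 1.00 without overlap. Of transcripts known only by clone names, 2010003K11Rik rose by 3.98 ± 0.55 (adjusted p = 0.0317) and BC024137 by 3.22 ± 0.41 (adjusted p = 0.0276).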
